A study of Mus musculus with 37 samples.

Results

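The levels of 8 genes of lipid and retinoid uptake by capillary endothelium were followed in single-cell RNA-Seq of nonmyocytes of the injured mouse heart. They are Lpl, Gpihbp1, Cd36, Fabp4, Fabp5, Rbp7, Meox2 and Tcf15, and they are 8 of the 31053 genes listed. The members were chosen by their levels in endothelial cells of these same libraries and by their part in lipid uptake, so the levels and ratios given for endothelial cells describe that choice and carry no test. Endothelial cells were all cells in which the summed counts of Pecam1, Cdh5, Emcn and Egfl7 reached at least 0.2% of the cell's counts. They numbered 738 of 7255 cells kept in the ENPP1CKO library and 164 of 5240 in the control library, or 902 of 12495 in all.

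The study asked how ENPP1, an ectonucleotidase that cleaves extracellular ATP, affects the repair of the heart after ischemic injury. Both libraries hold cells other than cardiomyocytes that were harvested from C57BL/6 hearts 7 days after myocardial infarction. ENPP1CKO animals were ENPP1 fl/fl and carried Col1a2CreERT, which is driven by a collagen promoter, so that the deletion was aimed at fibroblasts and not at endothelial cells, and tamoxifen was given from before the injury until harvest. The control library is labelled wild type, and whether its animals carried Cre or received tamoxifen is not stated for this library. Age is not given, nor is the number of hearts pooled. With 1 library per genotype there is no replicate, no p-value is given, and a difference between the genotypes cannot be told apart from a difference between these libraries.

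Capillary endothelium of the heart stands between the triglyceride-rich lipoproteins of blood and the muscle that burns their fatty acids. Lipoprotein lipase (Lpl) splits triglyceride at the capillary wall, GPIHBP1 carries the lipase across the endothelial cell and holds it there, CD36 takes up long-chain fatty acids, and the fatty acid-binding proteins FABP4 and FABP5 carry them inside the cell. RBP7 is a cellular retinol-binding protein and a target of the nuclear receptor PPARγ, while MEOX2 and TCF15 are transcription factors that as a pair promote fatty acid uptake genes in heart endothelium.

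Promoter sequence is shown for the 3 of the 8 genes that had an entry in the table used, which comprise the gene with the highest ratio between the libraries (Rbp7) and the one with the ratio nearest to 1 (Meox2). Each line gives the 250 bases before the RefSeq transcription start in mouse build GRCm38.p6, 5′ to 3′ on the gene's strand. Rbp7 is read from the minus strand of chr4:149454969-149455218, Cd36 from the minus strand of chr5:17835897-17836146 and Meox2 from the plus strand of chr12:37108290-37108539. Capitals mark matches on either strand to 3 strings, AGGTCA (the half-site bound by nuclear receptors such as PPARγ), CANNTG (the E-box bound by basic helix-loop-helix factors, TCF15 among them) and TATAAA.
Rbp7: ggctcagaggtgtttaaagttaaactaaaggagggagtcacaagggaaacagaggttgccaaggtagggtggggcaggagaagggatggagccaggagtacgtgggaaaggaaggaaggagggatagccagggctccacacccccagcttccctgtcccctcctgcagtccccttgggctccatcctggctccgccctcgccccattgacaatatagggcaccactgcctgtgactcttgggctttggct
Cd36: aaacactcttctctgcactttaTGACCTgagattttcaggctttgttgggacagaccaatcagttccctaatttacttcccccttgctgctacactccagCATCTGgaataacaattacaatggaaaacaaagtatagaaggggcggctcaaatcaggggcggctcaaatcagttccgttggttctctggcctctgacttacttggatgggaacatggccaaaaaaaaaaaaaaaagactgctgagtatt
Meox2: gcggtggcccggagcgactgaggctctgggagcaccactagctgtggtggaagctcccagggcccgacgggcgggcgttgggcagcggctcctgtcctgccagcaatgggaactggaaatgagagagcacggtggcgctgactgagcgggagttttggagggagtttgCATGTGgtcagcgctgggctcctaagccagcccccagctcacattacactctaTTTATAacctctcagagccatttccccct
None of the 3 strings lies in the Rbp7 window. The Cd36 window holds AGGTCA once, read on the other strand, and CANNTG once, and the Meox2 window holds CANNTG once and TATAAA once, read on the other strand. Among 32851 promoter windows of this length, 14.0% held AGGTCA, 66.2% CANNTG and 12.4% TATAAA. A match is a description of letters, and these counts say nothing of binding. GENCODE lists further starts for Cd36, so its window is 1 of several.

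The gate picked out cells with endothelial markers. Of the 738 and 164 cells, 734 and 162 fell in clusters that were named endothelial-like from 12 markers, all 12 of which had counts in both libraries. The 4 gate markers are among these 12, so part of this overlap is built in. Depth differed between the libraries, with a median of 1484 counts per endothelial cell in ENPP1CKO and 2602.5 in control. Summed, these cells held 1371055 and 472589 counts, so the same level is known less precisely in control. Of the barcodes, 68 occur in both libraries, 9 of them in ENPP1CKO and 4 in control endothelial cells. Without them the log2 ratio of the summed 8 genes, ENPP1CKO over control, was 1.31. Over all cells Enpp1 had 21.0 counts per 1000000 counts (CPM) in ENPP1CKO and 68.8 CPM in control, and whether the counted part of the transcript includes the floxed one is not stated.

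In endothelial cells 7 of the 8 genes had at least 2-fold higher levels in the ENPP1CKO library, and Meox2 did not. Of 7426 genes with at least 20 counts, 6.28% were at least 2-fold higher and 4.15% at least 2-fold lower, and since the 8 genes were selected on these levels nothing is read from their count. Together they made up 27332 CPM in ENPP1CKO and 10861 CPM in control, a ratio of 2.52 (95% limits 2.44 to 2.59). The limits here and below are exact 95% limits that cover counting error only. The median log2 ratio was 1.46 over the 8 genes and -0.02 over all genes. CPM are not scaled to transcript length, so levels are compared between libraries and cells and not between genes.

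For the lipase and its anchor both levels were higher in ENPP1CKO. Lpl (ENSMUSG00000015568, chr8:68880491-68907448), which encodes the lipase, had 320 counts or 233 CPM (limits 209 to 260) in ENPP1CKO and 20 counts or 42.3 CPM (25.9 to 65.4) in control, a ratio of 5.52 (3.51 to 9.15). Gpihbp1 (ENSMUSG00000022579, chr15:75596628-75599481), which encodes its capillary anchor, had 2518 counts or 1837 CPM (1766 to 1910) against 396 counts or 838 CPM (757 to 925), a ratio of 2.19 (1.97 to 2.44). The limits of the 2 libraries do not overlap for either gene. Lpl in control rests on 20 counts.

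The fatty acid receptor and the binding proteins were higher as well. Cd36 (ENSMUSG00000002944, chr5:17781690-17888801) had 2026 counts or 1478 CPM (1414 to 1543) in ENPP1CKO and 166 counts or 351 CPM (299.9 to 409) in control, a ratio of 4.21 (3.59 to 4.96). Fabp4 (ENSMUSG00000062515, chr3:10204088-10208576), the carrier that marks capillary endothelium and fat cells, had 29161 counts or 21269 CPM (21026 to 21515) against 4153 counts or 8788 CPM (8523 to 9059), a ratio of 2.42 (2.34 to 2.501). With these levels about 2.13% of all endothelial counts in ENPP1CKO and 0.879% in control came from this gene. Fabp5 (ENSMUSG00000027533, chr3:10012548-10016607), its neighbour on the chromosome, had 2188 counts or 1596 CPM (1530 to 1664) against 320 counts or 677 CPM (605 to 756), a ratio of 2.36 (2.10 to 2.66). Fabp5 has near-identical processed copies in the genome with which reads may be shared, so its level is less certain than the others.

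Rbp7 had the highest ratio of the 8. The retinol-binding protein gene (ENSMUSG00000028996, chr4:149449687-149454978) had 1014 counts or 739.6 CPM (695 to 787) in ENPP1CKO and 27 counts or 57.1 CPM (37.7 to 83.1) in control, a ratio of 12.9 (8.84 to 19.7). Among the 1448 genes with at least 200 counts in both libraries together and 20 in each, Rbp7 ranked 1, Lpl 2 and Cd36 3 from the highest ratio, and Fabp4, Fabp5 and Gpihbp1 ranked 21, 23 and 30.

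Of the pair of transcription factors, Tcf15 was higher over all endothelial cells and Meox2 was not. Tcf15 (ENSMUSG00000068079, chr2:152143561-152149097) had 137 counts or 99.9 CPM (83.9 to 118) in ENPP1CKO and 15 counts or 31.7 CPM (17.8 to 52.4) in control, a ratio of 3.15 (1.84 to 5.78). With every cell thinned to 1000 counts its log2 ratio was 0.85, under 2-fold, and in subclusters of the endothelial cells its limits include 0 wherever both libraries had a count. Meox2 (ENSMUSG00000036144, chr12:37108540-37179534) had 110 counts or 80.2 CPM (65.9 to 96.7) against 36 counts or 76.2 CPM (53.4 to 105), a ratio of 1.05 (0.717 to 1.58). The limits for Meox2 include 1, so no difference was detectable at this depth.

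**Figure D1:**
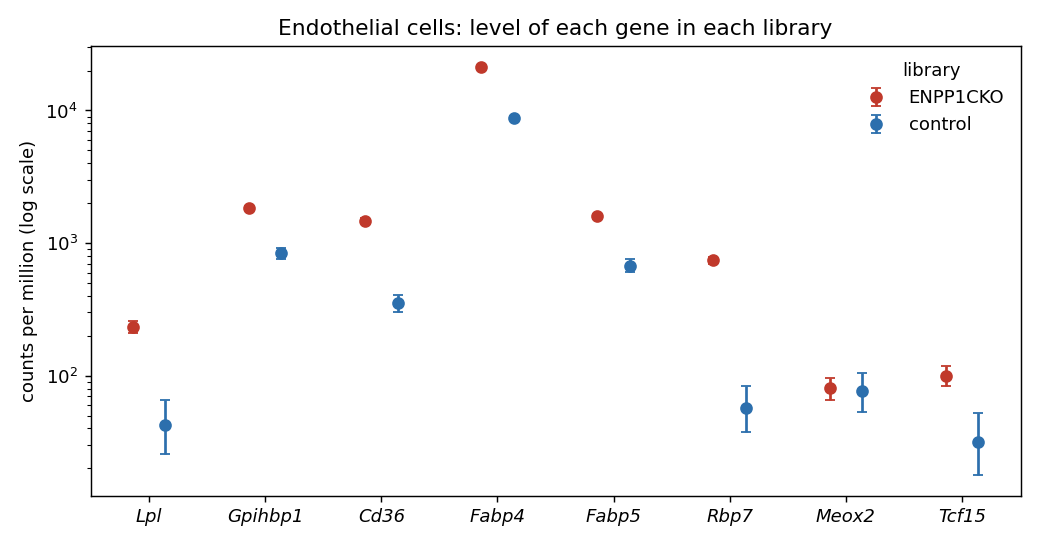
Level of each of the 8 genes in endothelial cells, in counts per 1000000 counts on a log scale, for the ENPP1CKO library (red, 738 cells) and the control library (blue, 164 cells). Points are summed counts of 1 library and bars are exact 95% limits of counting error, which are smaller than the point where no bar is seen. The red point lies above the blue one with no overlap of bars for all genes but Meox2, which stood at 80.2 and 76.2 CPM.

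**Figure D2:**
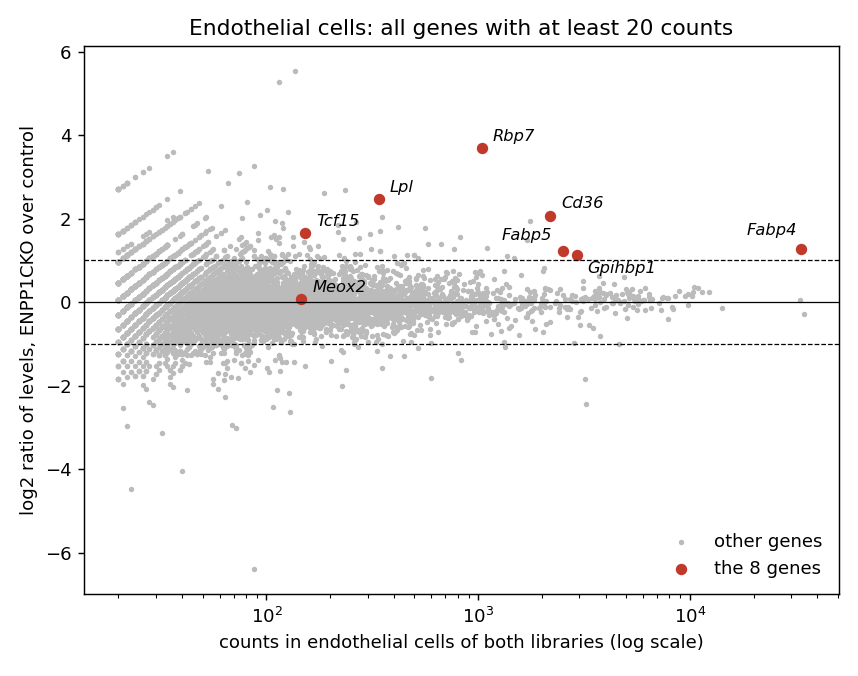
Log2 ratio of levels in endothelial cells, ENPP1CKO over control, against the counts of both libraries on a log scale, for 7426 genes with at least 20 counts. Grey points are single genes, red points are the 8 genes and dashed lines mark 2-fold; a gene with no count in 1 library is drawn against 3 counts there. Rbp7 lies at 3.69, Lpl at 2.46 and Cd36 at 2.07, and Meox2 lies near 0 at 0.07.

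The share of cells with a count was taken from the same counts by which the genes were chosen, so it restates that choice and is no separate support. To compare cells of unlike depth each cell was thinned at random to 1000 counts, which left 552 ENPP1CKO and 149 control endothelial cells. At least 1 Rbp7 count was found in 32.4% of ENPP1CKO cells (limits 28.5 to 36.5) and 5.37% of control cells (2.35 to 10.3). Without thinning the shares were 39.7% and 10.98%. T or NK cell-like cells should lack the gene and had median depths of 1563.5 and 1626 counts. Thinned, 0.680% of 147 such cells in ENPP1CKO and 0 of 118 in control (limits up to 3.08%) had a count, and in control these limits overlap those of the endothelial share.

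For the other genes the shares at 1000 counts were ordered in the same direction, though not for Meox2 at other depths. A Cd36 count was present in 59.6% of the ENPP1CKO cells against 26.2% of the control cells, Gpihbp1 in 67.8% against 45.6%, and Fabp5 in 59.1% against 38.9%. Lpl was found in 16.1% (13.2 to 19.5) and 4.03% (1.49 to 8.56), where thinned T or NK cell-like cells gave 2.72% and 0.847%, and in control the limits of both cell types overlap. Fabp4 was found in most cells of both libraries, 94.4% and 83.9%. Shares for Tcf15 (8.70% and 5.37%) and Meox2 (8.70% and 6.71%) had overlapping limits. For Meox2 the order turned with thinning to 500 counts (3.93% and 4.27%) and without thinning (12.5% and 17.1%). For these 2 genes no difference in the share of cells was detectable at this depth.

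In the same counts, and so again as a description of the choice, ENPP1CKO cells showed more of the 8 genes at once. After thinning, the median cell had counts of 4 of the 8 genes in ENPP1CKO and of 2 in control. At least 4 of the genes were seen in 53.1% of ENPP1CKO and 12.8% of control cells, and none of them in 3.804% and 10.1%. Per cell, without thinning, the 8 genes took a median of 2.96% of a cell's counts in ENPP1CKO (25th to 75th percentile 1.49% to 4.27%) and 0.920% in control (0.376% to 1.80%). These distributions overlap: the highest control cell reached 4.84% and at least 1 ENPP1CKO cell had 0.

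**Figure D3:**
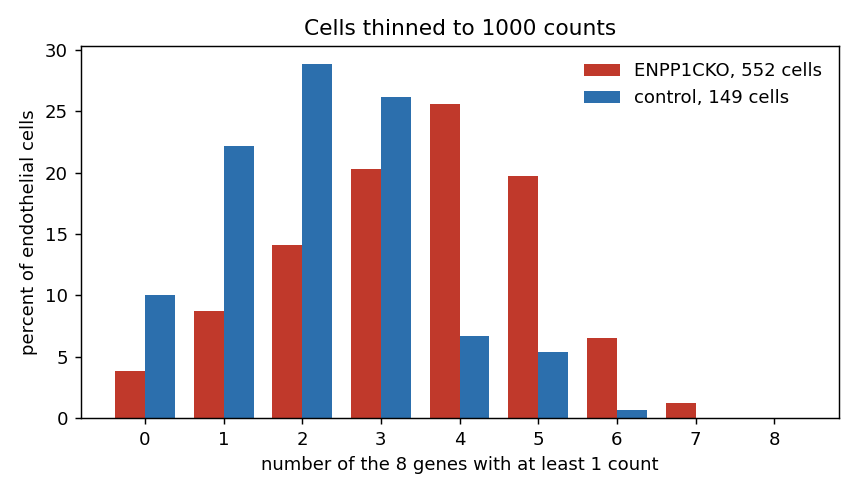
Percent of endothelial cells (vertical axis) by the number of the 8 genes with at least 1 count (horizontal axis), each cell thinned to 1000 counts, for 552 ENPP1CKO cells (red) and 149 control cells (blue). The ENPP1CKO bars peak at 4 genes and the control bars at 2, and no cell in either library showed all 8.

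Within the ENPP1CKO library the genes varied together from cell to cell, except Meox2. Thinned cells with an Rbp7 count (179) had higher levels than those without (373) of Fabp4 (27475 against 19373 CPM), Cd36 (1788 against 1276 CPM), Gpihbp1 (2514 against 1617 CPM) and Fabp5 (2028 against 1456 CPM). The same held for Lpl (341 against 188 CPM) and Tcf15 (173 against 77.7 CPM), each with limits that do not overlap. Meox2 stood at 78.2 CPM (42.8 to 131) and 99.2 CPM (69.8 to 137), and the junction gene Cdh5, used for the gate, at 944 and 1008 CPM, with overlapping limits. In control only 8 thinned cells had an Rbp7 count. Cells of 1 library are not replicates, so these values describe that library.

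The summed levels were higher in the shallowest than in the deepest cells of both libraries, and the ratio was above 1 at each depth. In cells with 500 to under 1000 counts the 8 genes summed to 35742 CPM in ENPP1CKO (186 cells) and 12372 CPM in control (15 cells). In cells with 4000 counts or more they summed to 24540 CPM (45 cells) and 8805 CPM (31 cells). The log2 ratio of the sum was 1.53 and 1.48 in these shallowest and deepest cells and 1.07 and 1.08 in the cells between, with 1000 to under 2000 and 2000 to under 4000 counts. Rbp7 had log2 ratios of 2.70, 3.42, 3.28 and 4.31 from the shallowest to the deepest cells. In the cells with 1000 to under 2000 counts, the log2 ratio was 1.55 for Lpl, 1.45 for Cd36 and 1.04 for Fabp4. It was 0.99 for Fabp5, 0.87 for Tcf15, 0.75 for Gpihbp1 and -0.47 for Meox2.

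Cells just inside the gate had summed levels near those of cells well inside it. With gate markers at 0.2% to under 0.3% of counts, the 8 genes summed to 25103 CPM in 191 ENPP1CKO cells and 11451 CPM in 44 control cells, and with gate markers at 0.5% or more to 29852 and 10964 CPM. Just outside, at 0.1% to under 0.2%, they summed to 20590 CPM in 166 cells and 5326 CPM in 33 cells. Of those outside cells 144 and 21 lay in endothelial-like clusters, a larger part of the ENPP1CKO than of the control cells.

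Across cell classes the genes fell into those seen mainly in endothelium and those that other cells held too. Classes were clusters named from marker genes. The values for classes other than endothelial cells are for cells below the endothelial gate, and classes with at least 50 cells in each library are described. In the ENPP1CKO library endothelial cells held 76.0% of all Gpihbp1 counts, 75.2% of Fabp4, 71.8% of Rbp7, 68.5% of Tcf15 and 62.5% of Cd36 counts. They held 27.6% of Fabp5, 24.1% of Meox2 and 4.40% of Lpl counts. In the control library, with fewer endothelial cells, the share was 78.1% for Gpihbp1, 70.8% for Fabp4 and 69.2% for Rbp7, but 10.98% for Cd36, 3.25% for Fabp5 and 0.407% for Lpl. Cells of the endothelial-like clusters that fell below the gate (198 and 31) hold part of the rest, with Rbp7 at 841 and 99.1 CPM.

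Lpl was a gene of stromal cells as well. Its levels were 349 CPM in fibroblast-like, 233 CPM in endothelial, 207 CPM in smooth muscle or pericyte-like and 136 CPM in macrophage-like cells of the ENPP1CKO library. The endothelial and smooth muscle or pericyte-like levels there were not separated by their limits. In control the order was smooth muscle or pericyte-like (339 CPM), fibroblast-like (276 CPM), macrophage-like (199 CPM) and endothelial (42.3 CPM), so endothelial cells stood lowest of these 4. The limits of the smooth muscle or pericyte-like level (282 to 404) and the fibroblast-like level (266 to 286) overlap. T or NK cell-like and dendritic cell-like cells had at most 20.8 CPM in either library.

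Cd36 and Fabp5 were shared with macrophages, which take up lipid from dead cells. Cd36 was highest in endothelial cells of both libraries, followed in ENPP1CKO by smooth muscle or pericyte-like (116 CPM) and macrophage-like cells (84.2 CPM), whose limits overlap, and in control by macrophage-like (146 CPM) and dendritic cell-like cells (57.2 CPM). Fabp5 was highest in endothelial cells of the ENPP1CKO library and in macrophage-like cells of the control library (923 CPM against 677 CPM in endothelial cells). In macrophage-like cells both genes had lower levels in ENPP1CKO than in control, with ratios of 0.576 (limits 0.522 to 0.636) for Cd36 and 0.604 (0.581 to 0.628) for Fabp5. The macrophage-like cells of the libraries lie in part in different clusters, since 1 of their clusters, with Saa3 among its leading genes, held 814 control and 52 ENPP1CKO cells. Fabp5 in dendritic cell-like cells was 49.2 CPM in ENPP1CKO and 465 CPM in control, a ratio of 0.106 (0.0615 to 0.172).

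Fabp4, Gpihbp1 and Rbp7 were far lower outside endothelium, and what was found there was also higher in the ENPP1CKO library. Fabp4 stood at 1799 and 1201 CPM in smooth muscle or pericyte-like cells, 107 and 61.0 CPM in macrophage-like cells and 81.9 and 16.2 CPM in fibroblast-like cells. In dendritic cell-like cells it stood at 161 and 16.7 CPM and in T or NK cell-like cells at 41.6 and 10.4 CPM, so that all 5 classes had ratios above 1 with limits that exclude 1. Rbp7 had 58 counts in 3725 ENPP1CKO fibroblast-like cells and 1 count in 1862 control cells, or 3.51 and 0.0962 CPM. RNA free in the suspension reaches every droplet, and its part in these low levels was not tested; with the lowest class level of each library subtracted, the log2 ratio of Fabp4 in endothelial cells was 1.27. For Rbp7 that lowest level was 0 in both libraries, so the subtraction leaves its ratio as it was.

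In smooth muscle or pericyte-like cells of the ENPP1CKO library endothelial transcripts were found together. The 4 gate markers summed to 131 CPM there in ENPP1CKO and 13.6 CPM in control, and 154 and 75 cells were compared. Beside this, Gpihbp1 stood at 104 CPM (42 counts) and 2.71 CPM (1 count), Rbp7 at 34.5 CPM (14 counts) and 0 counts, and Tcf15 at 54.2 CPM (22 counts) and 8.14 CPM (3 counts). Meox2 was 37.0 CPM in ENPP1CKO and 70.5 CPM in control on 15 and 26 counts, a ratio of 0.524 (0.258 to 1.03) whose limits include 1. How much of these levels came from endothelial RNA was not tested.

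**Figure D4:**
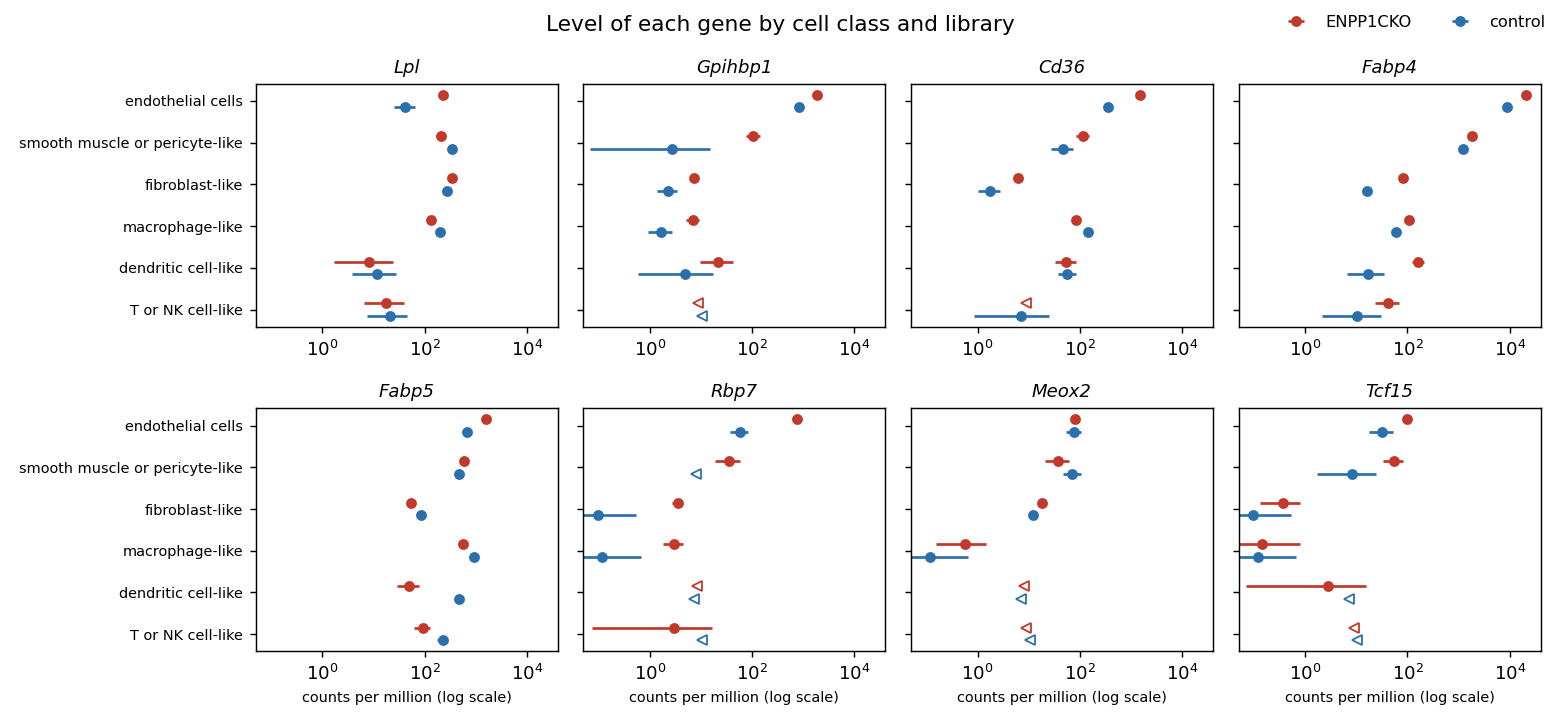
Level of each gene (1 panel each) by cell class, in CPM on a log axis, for the ENPP1CKO (red) and control (blue) libraries; classes with at least 50 cells in each library are shown. Bars are exact 95% limits of counting error and an open triangle marks the level of 3 counts where a class had none. Rbp7, Gpihbp1 and Fabp4 are highest in endothelial cells of both libraries, whereas fibroblast-like cells of the libraries have 349 and 276 CPM of Lpl.

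Clustered again without the 8 genes and without their pathway lists, the endothelial cells gave 6 subclusters. By their markers these were a capillary-like (number 1), a venous-like (2), a sprouting-like (4) and a lymphatic-like (5) subcluster, and 2 stayed unnamed. Unnamed subcluster 3 showed 4 capillary and 3 arterial markers, with none of the capillary list among its 10 leading genes, and unnamed subcluster 6, led by genes of cell division and Ccl21a, had 10 ENPP1CKO and 2 control cells. Subclusters 1 and 3 held 323 and 138 ENPP1CKO cells but 16 and 9 control cells. The venous-like one held 162 and 62 cells, the sprouting-like one 65 and 58 and the lymphatic-like one 40 and 17. Their defining genes differ in level between the libraries, so their sizes are not compared, and a subcluster made almost wholly of 1 library's cells may reflect that library. Subcluster 1 was led by Timp4, Car4 and Rgcc, and subcluster 3 by Ccl5, Rgs5, also a pericyte marker, and Atf3, an early stress gene.

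Of subclusters 1 to 5, capillary-like subcluster 1 had the highest ENPP1CKO levels of Rbp7, Lpl, Cd36, Fabp4, Fabp5 and Gpihbp1. That order depends on the resolution: at a Leiden resolution of 1.0 an arterial-like subcluster of 32 ENPP1CKO cells and 1 control cell had Rbp7 at 2370 CPM (limits 2003 to 2784) in ENPP1CKO, against 1521 CPM in the highest capillary-like one. For Rbp7 subcluster 1 had 1240 CPM in ENPP1CKO against 391 CPM in control, and levels were 1047 and 87.5 CPM in subcluster 3, 193 and 39.8 CPM in the venous-like and 238 and 49.8 CPM in the sprouting-like cells. Lymphatic-like cells had 3 Rbp7 counts in ENPP1CKO and 0 in control, and 0 Cd36 counts in either library. Fabp4 ran from 30467 and 17235 CPM in subcluster 1 to 11226 and 8117 CPM in sprouting-like and 1288 and 271 CPM in lymphatic-like cells. Of the named subclusters at the resolution of 0.5, lymphatic-like cells had the lowest measured level of each of these 6 genes in both libraries. Their 17 control cells had 0 counts of Rbp7 and of Lpl, with limits up to 100 CPM. For Rbp7 in control and for Lpl in both libraries their limits overlap those of venous-like and sprouting-like cells. In the 10 ENPP1CKO cells of subcluster 6 Rbp7 was higher still, at 1646 CPM on 71 counts.

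Within each of subclusters 1 to 4 at the resolution of 0.5 the sum of the 8 genes was higher in the ENPP1CKO library, by less than over all endothelial cells. Its log2 ratio was 0.87 (limits 0.73 to 1.01) in subcluster 1, 0.86 (0.79 to 0.93) in venous-like, 0.86 (0.71 to 1.01) in subcluster 3 and 0.57 (0.49 to 0.66) in sprouting-like cells, against 1.33 (1.29 to 1.37) over all. In the smaller subclusters it was more, 2.26 (1.48 to 3.16) in lymphatic-like cells on 174 and 14 counts and 2.47 (2.07 to 2.89) in subcluster 6. Rbp7 had a log2 ratio of 1.67 (0.68 to 2.89), 2.28 (1.16 to 3.65), 3.58 (1.71 to 6.63) and 2.26 (1.23 to 3.43) in subcluster 1, venous-like cells, subcluster 3 and sprouting-like cells. Cd36 also had limits above 0 in these 4, with values from 0.84 in venous-like to 1.60 in subcluster 1. Lpl had limits above 0 in subcluster 1 alone of these 4. In sprouting-like cells it stood at 50.2 CPM (8 counts) and 54.8 CPM (11 counts), with wide limits of -1.64 to 1.32, and in venous-like cells and subcluster 3 its control level rests on 4 and 2 counts. Gpihbp1 had limits that include 0 in subcluster 3. Tcf15 stood at 192 and 244 CPM in subcluster 1 on 87 and 5 counts, where no difference was detectable. At a Leiden resolution of 1.0 the log2 ratio of the sum was above 0 in all 10 subclusters but ran from 0.22 (0.06 to 0.38), in an unnamed subcluster of 135 and 9 cells, to 2.47. In that unnamed subcluster the limits for Fabp4 and Fabp5 include 0. In the capillary-like subcluster with 161 and 2 cells Rbp7 stood at 1521 and 1423 CPM, the latter on 4 counts, a log2 ratio of 0.10 (-1.27 to 1.98), and in a venous-like one with 86 and 15 cells Gpihbp1 had -0.37 (-0.88 to 0.18).

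The ratio was also computed at equal subcluster sizes, which share the limit stated above for those sizes. With the ENPP1CKO subclusters weighted as in the control library, an alternative chosen after seeing the data, the sum of the 8 genes was 18821 CPM against 10861 CPM, a log2 ratio of 0.79. Rbp7 and Cd36 then had ratios of 5.86 and 2.18. Those of Lpl, Fabp5, Gpihbp1, Fabp4 and Tcf15 were under 2-fold, at 1.98, 1.80, 1.77, 1.68 and 1.63. In the pooled cells of subclusters 1 and 3 (461 and 25 cells) Rbp7 was 1170 CPM and 231 CPM, a log2 ratio of 2.34 (1.46 to 3.41), and Fabp4 0.90 (0.78 to 1.01). Those control values rest on 25 cells, with 10 Rbp7 counts. Of 8 markers of capillary endothelium 6 were at least 2-fold higher in ENPP1CKO endothelial cells, beside 6.28% of all genes, among them Timp4 (113 counts and 1 count) and Car4 (74 counts and 0). More capillary cells and more RNA of these genes per cell cannot be told apart in the summed values.

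**Figure D5:**
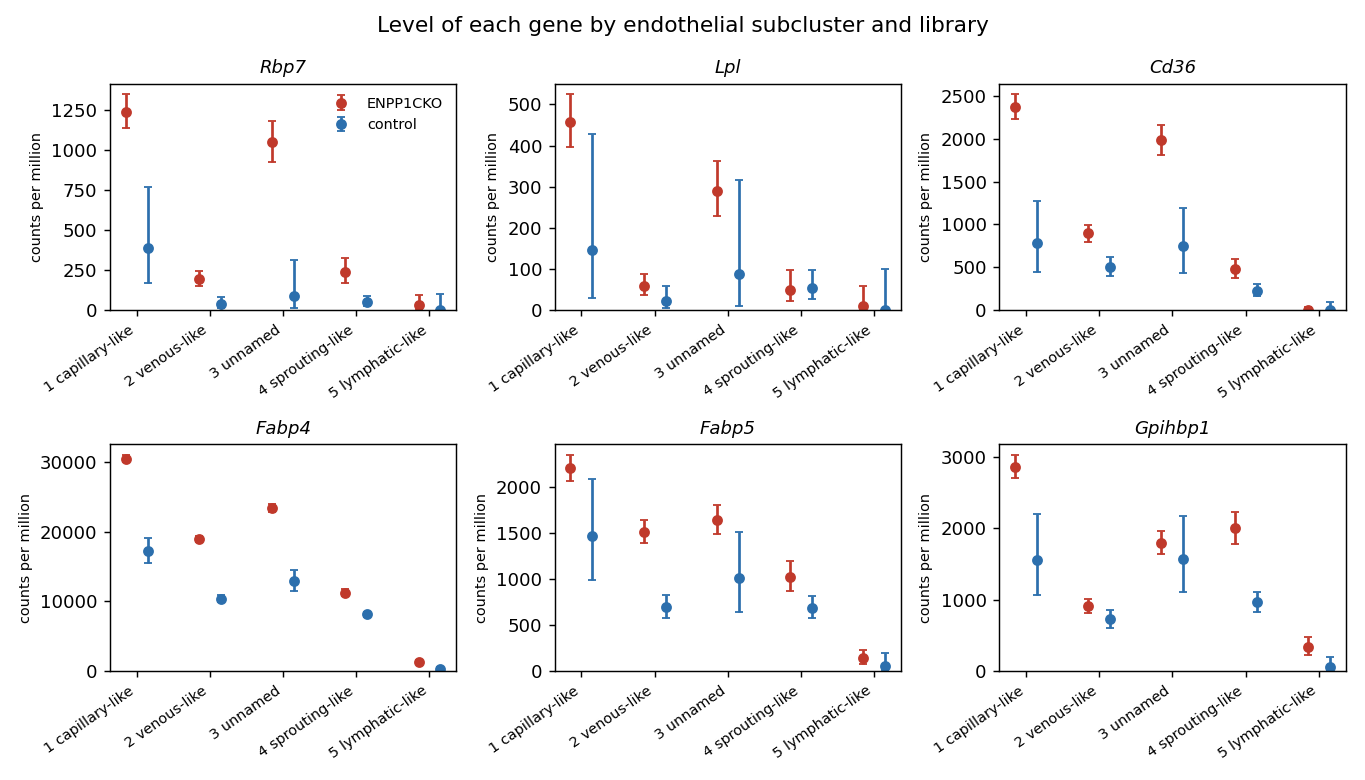
Level of 6 genes (1 panel each) in CPM by endothelial subcluster, for the ENPP1CKO (red) and control (blue) libraries, with exact 95% limits of counting error. Of the 5 subclusters drawn, subclusters 1 and 3 have the highest ENPP1CKO levels of Rbp7, Lpl and Cd36 and lymphatic-like cells the lowest. For Lpl the lymphatic-like limits overlap those of venous-like and sprouting-like cells. The control limits are wide in subclusters 1 and 3, which hold 16 and 9 control cells.

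Of 30 further genes of fatty acid and lipoprotein handling 20 had enough counts. Among these 3 were at least 2-fold higher (Aqp7, Acsl4 and Cavin2), beside 6.28% of all genes, and 1 was at least 2-fold lower (Angptl4), beside 4.15%. Their median log2 ratio was 0.22 and that of their summed levels 0.47, and 15 of the 20 lay above 0, beside 48.4% of all genes. Aqp7, which lets glycerol through the membrane, had 68.6 CPM in ENPP1CKO and 14.8 CPM in control, a log2 ratio of 2.21 (limits 1.11 to 3.56). Angptl4, a secreted inhibitor of lipoprotein lipase, had 45.2 and 114 CPM, a log2 ratio of -1.34 (-1.89 to -0.78). Cavin2, a coat protein of caveolae, had 928 and 444 CPM (log2 ratio 1.06), while Cav1, the caveolae's main membrane protein, had 1186 and 942 CPM (0.33). Log2 ratios were 0.74 for Cav2, of caveolae as well, and 0.67 and 0.61 for the VEGF receptor Flt1 and the coreceptor Nrp1. Acsl4, which joins fatty acids to coenzyme A, had 32.8 and 14.8 CPM on 45 and 7 counts, with limits of -0.01 to 2.54. Genes of lipid storage and scavenging were nearly level, with log2 ratios of -0.01 for Plin2 and 0.05 for Scarb1.

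Of 16 genes of PPAR and Notch signalling and related factors 10 had enough counts. Of these 1 was at least 2-fold higher (Pparg) and 1 lower (Klf2), beside 6.28% and 4.15% of all genes, with a median log2 ratio of 0.01. Pparg, the nuclear receptor for which Fabp4, Cd36 and Rbp7 are known targets, had 74 counts or 54.0 CPM in ENPP1CKO and 10 counts or 21.2 CPM in control, a log2 ratio of 1.35 (0.39 to 2.47). Ppara, Ppargc1a and Rxrg had no count in endothelial cells of either library. Klf2, a factor induced by blood flow, had 327 and 755 CPM (-1.21), whereas the related Klf4 had 246 and 150 CPM (0.71). The Notch ligand Dll4 had 26.3 and 40.2 CPM with limits of -1.45 to 0.27, Notch1 had 78.0 and 80.4 CPM, and Meox1, the relative of Meox2, had 168 and 176 CPM.

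Among further genes of retinoid handling, Dhrs3 was at least 2-fold higher. Dhrs3, which reduces retinal to retinol, had 48.1 and 16.9 CPM (log2 ratio 1.51, limits 0.45 to 2.78), and the receptor Rara had 32.1 and 23.3 CPM with limits of -0.51 to 1.57.

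Markers of other cells were also counted in the endothelial cells, and some lists differed in level between the libraries. Of 8 fat cell markers, Adipoq, Cidec, Lep, Cfd, Retn and Plin4 had no count in either library, and the list summed to 1.46 CPM in ENPP1CKO and 2.12 CPM in control, over 2 and 1 of the 8 genes. Of 10 cardiomyocyte markers 8 had a count in ENPP1CKO and 5 in control, with sums of 55.4 and 23.3 CPM and with Myh6 and Actn2 at 0 in both. Fibroblast markers summed to 808 and 779 CPM over 10 and 9 of 10 genes, macrophage markers to 400.4 and 588 CPM over 10 of 10 genes in both, and smooth muscle or pericyte markers to 138 and 142 CPM over 10 and 4 of 10. T or NK cell markers summed to 10.9 and 86.8 CPM over 7 of 10 genes in both and red blood cell markers to 40.8 and 10.6 CPM over 4 and 2 of 5. Their part in the levels of the 8 genes was not tested.

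Over cell classes some genes had profiles close to those of the 8. The likeness was Pearson's r of log2(CPM + 10) over 12 points, the 6 classes with at least 50 cells in each library, with both libraries as points, among 1444 genes with at least 200 endothelial counts. These points share 2 libraries, and r is given as a description. Most like the sum of the 8 genes were Cav2 (r = 0.97), Plxnd1 (0.95), Bnip2 (0.94), Apold1 (0.94) and Cav1 (0.93). Most like Rbp7 were Thrsp (0.97), C1qtnf9 (0.96), Depp1 (0.96), Cyyr1 (0.96) and Cd300lg (0.94). Among the 8 genes themselves Rbp7 was most like Gpihbp1 (0.93) and Tcf15 (0.91) and least like Lpl (0.23), whose counts lie mostly in fibroblast-like cells.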

How the data were processed

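Nonmyocytes of 1 ENPP1CKO and 1 control library were used; the bulk libraries of the series were not used here. The authors deposited unnormalized whole-number counts (unique molecular identifiers) for each gene in each barcode (mm10 and Cell Ranger by the submitters' processing notes, version not given in the sources used here). Symbols were found for 30934 of 31053 identifiers, and gene positions are from GENCODE M21 on GRCm38. Members and lists were chosen with earlier results of these data known.

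Barcodes with fewer than 200 genes, over 20% mitochondrial counts or called doublets by Scrublet (151 and 69, of which 10 and 5 passed the gate) were removed. Clustering used Python 3.11.15, scanpy 1.11.5 and leidenalg 0.10.2 (2000 variable genes without the 8 genes, resolution 0.5). A cluster was named by at least 3 markers found in 10% of its cells at 2-fold the median cluster with its share of markers 0.15 above the next list's; for endothelial subclusters at least 1 of these markers also had to be among the 10 leading genes, a condition added after seeing the data. Counts were summed per class and library and divided by their total (CPM). Limits are exact Poisson, conditional binomial or Clopper-Pearson, computed with scipy 1.17.1. The limits of ratios were tested on simulated Poisson counts, the model they assume, so that test checks the computation and leaves out spread between cells. Library totals were 28039559 and 22746607 counts. Named were all 8 genes, up to 4 genes per list with 50 counts and the largest ratios in size, the 5 highest and 5 lowest of all genes with 200 counts, and 5 of like profile; genes added after their values were seen are Cav1, Cav2, Flt1, Nrp1, Plin2, Scarb1, Notch1 and Meox1. Some results that fall under this rule are not reported here. Lists of endothelial types, dissociation stress and cell division are given in the closing section. Of the alternatives, 11 were planned and 5 added after seeing the data.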

Additional observations from a re-analysis of the deposited data

Results flagged for a closer look

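Lpl, Cd36 and Fabp5 were higher in ENPP1CKO endothelial cells and lower in ENPP1CKO cells of some other classes, with 1 library on each side and no test of the difference. In macrophage-like cells the log2 ratio of ENPP1CKO over control was -0.55 for Lpl, -0.80 for Cd36 and -0.73 for Fabp5. Lpl had -0.71 in smooth muscle or pericyte-like cells. Fabp5 had -0.65 in fibroblast-like, -1.29 in T or NK cell-like and -3.24 in dendritic cell-like cells. Ratios above 1 outside endothelium were found for Lpl in fibroblast-like cells (log2 ratio 0.34) and for Cd36 and Fabp5 in smooth muscle or pericyte-like cells (1.33 and 0.30). Cd36 in fibroblast-like cells stood at 6.05 and 1.73 CPM, a log2 ratio of 1.80 (limits 1.07 to 2.62). This control level is the lowest class level of Cd36, and fibroblast-like cells are also lowest in control for Fabp5 (85.9 CPM). Dendritic cell-like cells are lowest in ENPP1CKO for Fabp5 (49.2 CPM). No direction is read from these ratios, which rest on a lowest class level. The fibroblast-like cells of the libraries lie in part in different clusters, 1 with 540 ENPP1CKO and 58 control cells and another with 133 and 401. In endothelial cells the log2 ratios were 2.46 for Lpl, 2.07 for Cd36 and 1.24 for Fabp5.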

How the results depend on the processing

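Over 11 other settings (gate, cluster, depth, filter, doublet, centring and background choices) Rbp7 kept a log2 ratio of 3.49 to 4.10, Lpl 2.06 to 3.13, Cd36 1.79 to 2.10, Fabp4 1.13 to 1.41, Fabp5 1.10 to 1.39, Gpihbp1 0.92 to 1.15, Meox2 0.07 to 0.39 and Tcf15 0.85 to 1.71. Tcf15 gave no value with a gate of 0.5%, where no control cell had a count. The log2 ratio of the summed 8 genes, 1.33, was 1.45 with the gate at 0.5% of counts, 1.40 in endothelial-like clusters, gate or not, 1.24 in cells with at least 2000 counts and 1.18 with every cell thinned to 1000 counts. Of settings chosen after seeing the data, it was 0.79 with subclusters weighted as in the control library, 1.07 in cells with 1000 to 2000 counts and 0.93 in subclusters 1 and 3, those with at least 3 capillary markers. In these 3 settings 2, 4 and 3 of the 8 genes were at least 2-fold higher, against 7. The count was also 5 with every cell thinned and 6 with the gate at 0.5%. The share of all genes at least 2-fold higher (6.28%) was counted for the first setting alone, so nothing is read from the counts at other settings. Tcf15 went to -0.037 in subclusters 1 and 3, where the control library has 25 cells. Endothelial cells were 10.2% of ENPP1CKO and 3.13% of control cells; with the gate at 0.1% of counts they were 12.5% and 3.76%, at 0.5% 2.88% and 0.725%, and in cells with at least 2000 counts 4.28% and 2.49%. In ENPP1CKO they were 9.33% with at least 3 marker counts and 9.41% in cells of 500 or more genes with mitochondrial counts of 10% or less. No paired analysis was possible because each genotype has 1 library. Precision is limited by the 164 control cells, and the limits hold no spread between animals.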

Other observations

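Beside the lipid uptake genes, the highest ratios in ENPP1CKO endothelial cells were those of Slc6a6, the taurine transporter (236 and 57.1 CPM, log2 ratio 2.04), and Cxcl12, a chemokine of vessel growth (1181 and 309 CPM, 1.93). Among the lowest were those of Igfbp7 (821 and 4461 CPM, -2.44), Nupr1 (70.0 and 279 CPM, -1.996), Ccl21a (1036 and 3728 CPM, -1.85) and Igfbp3 (83.9 and 258 CPM, -1.62). Igfbp7 and Igfbp3 bind insulin-like growth factors, and Ccl21a is a chemokine of lymphatic endothelium.

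Markers of other endothelial types are given beside all genes, of which 4.15% were at least 2-fold lower and 48.4% above a log2 ratio of 0. Of 11 markers of sprouting cells 4 were at least 2-fold lower (Esm1, Plvap, Pgf and Cxcr4) and 0 higher, with a median log2 ratio of -0.58; Pgf had -1.54, Esm1 -1.15, Plvap -1.08 and Angpt2 -0.996. Of 7 lymphatic markers 3 were lower (Ccl21a, Reln and Pdpn), with a median of -0.81; Pdpn had -1.40, Prox1 -0.81 and Mmrn1 -0.51. Of 10 arterial markers 2 were lower (Gja5, -1.95, and Gja4, -1.41) and Stmn2 was higher (1.14), with a median of -0.54. Of 8 venous markers 1 (Bst1) was lower, with a median of -0.22, and Vwf had -0.32, Nr2f2 -0.30, Selp -0.13 and Ephb4 -0.12. In the capillary list the median was 1.52, and Timp4 had 5.28 (limits 2.78 to 10.6) on 113 counts and 1 count, Cd300lg 1.79 and Btnl9 1.54. Car4 had 74 counts in ENPP1CKO and 0 in control, with a lower limit of 2.75 for its log2 ratio. Of 7 endocardial markers only 2 had enough counts, Cytl1 with a ratio of at least 2-fold and Cgnl1 with 0.74.

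Of 14 genes of dissociation stress with enough counts 1 was at least 2-fold higher (Fosb, 1.69) and 1 lower (Jund, -1.10). Above a log2 ratio of 0 were 12 of the 14, beside 48.4% of all genes, with a median of 0.38 and summed levels of 7695 and 5711 CPM; Zfp36 had 0.91 and Dusp1 0.66. Of 8 genes of cell division 6 had enough counts, with a median of -0.39; Cenpf had 1.35, Ube2c -0.54, Stmn1 -0.51 and Top2a -0.10.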
